A study of Homo sapiens with 6 samples.

Results

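The genes described here encode the machinery of fatty acid oxidation: activation of fatty acids, the carnitine shuttle, the mitochondrial and peroxisomal oxidation steps, the electron carriers that serve them, and 2 regulators. They were taken by symbol from a list of 33 genes, all of which were among the 58395 genes of the deposited expression table. Of these, 26 had a mean of at least 1 FPKM (fragments per kilobase of gene, scaled to the mapped fragments of the library) over all libraries and were tested together with 10469 genes in all.

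Total RNA was sequenced from 786-O, an established human clear cell renal carcinoma line without functional VHL, grown in RPMI-1640 with fetal bovine serum. The sgControl group, 3 libraries, came from cells with a control guide, and the sgPLOD2 group, also 3 libraries, from cells in which PLOD2 was ablated with CRISPR/Cas9. PLOD2 encodes lysyl hydroxylase 2, which modifies collagen lysines. The labels name neither the guide sequences nor a clone, and they do not state whether replicates came from separate cultures. All p-values therefore refer to the spread between libraries, part or all of which may be technical.

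Fatty acids are first joined to coenzyme A by acyl-CoA synthetases. Long chains then enter the mitochondrion as carnitine esters, made by CPT1 at the outer membrane, carried inwards by SLC25A20 and turned back into acyl-CoA by CPT2. In the matrix, repeated rounds of dehydrogenation, hydration, a further dehydrogenation and thiolysis shorten the chain, and the electrons of the dehydrogenases pass through ETF and ETFDH to ubiquinone. Peroxisomes shorten very long and branched chains with a separate set of enzymes. The healthy proximal tubule relies on this pathway for energy, whereas clear cell renal carcinoma is known for storing lipid in droplets. Malonyl-CoA, the product of acetyl-CoA carboxylase, blocks CPT1.

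PLOD2 itself measured 26.8, 25.7 and 21.5 FPKM in the sgControl libraries and 5.98, 10.1 and 6.64 in sgPLOD2. The groups did not overlap, and 30.7% of the control mean remained. On log2(FPKM + 1), the scale of every difference given below as sgPLOD2 minus sgControl, PLOD2 fell by 1.61 ± 0.18 (SE; limma, adjusted p = 0.000509). An exact 2-sided permutation test over the libraries gave p = 0.1, the smallest that 3 libraries against 3 allow, and this limit holds for every gene below.

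Between 9874 and 10649 genes reached 1 FPKM per library, and absolute read depth is unknown. Mitochondrially encoded genes took 12.9% of the FPKM total of sgControl replicate 1, and between 6.01% and 7.5% elsewhere. The kidney carcinoma markers PAX8, PAX2, VIM, KRT8 and KRT18 were all above 1 FPKM, whereas CA9 and NDUFA4L2 were below it. The summed level of all 7 of these markers was 1175 to 1549 FPKM in sgControl and 1021 to 1102 FPKM in sgPLOD2. Among markers of fibroblasts, endothelium, hepatocytes and adipocytes none reached 1 FPKM, with DCN, VWF and ADIPOQ listed at 0 in every library. Of the leukocyte markers, CD3E was listed at 0, PTPRC was at or near 0, and CD68, which other cells also make, accounted for the 11.4 to 18.2 FPKM in sgControl and 5.29 to 6.41 FPKM in sgPLOD2. Its part in the results below was not tested.

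Expression of this machinery was lower in sgPLOD2 at several steps of the pathway and not at others. Of the 26 tested genes, 12 fell, 4 rose and 10 did not pass the test at an adjusted p of 0.05. Among all 10469 tested genes 23.5% fell and 29.5% rose, whereas among the fatty acid oxidation genes 46.2% fell and 15.4% rose. Their median difference was -0.26, beside 0.06 for all tested genes, and 15 of the 26 were negative. Rescaling every library to the same total (TPM) moved the median of all tested genes to 0.20, with 17.5% falling and 35.1% rising, and 10 of the fatty acid oxidation genes then fell and 5 rose. With median-of-ratios scaling 12 fell and 2 rose. In bulk libraries, fewer cells that express a gene and less RNA per cell cannot be told apart. Both group means of each of these 26 genes were at least 1 FPKM, so none of them entered the test through 1 group alone. Among tested genes outside the list this did not always hold. The 7 genes below the filter are accounted for at their own steps.

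**Figure D1:**
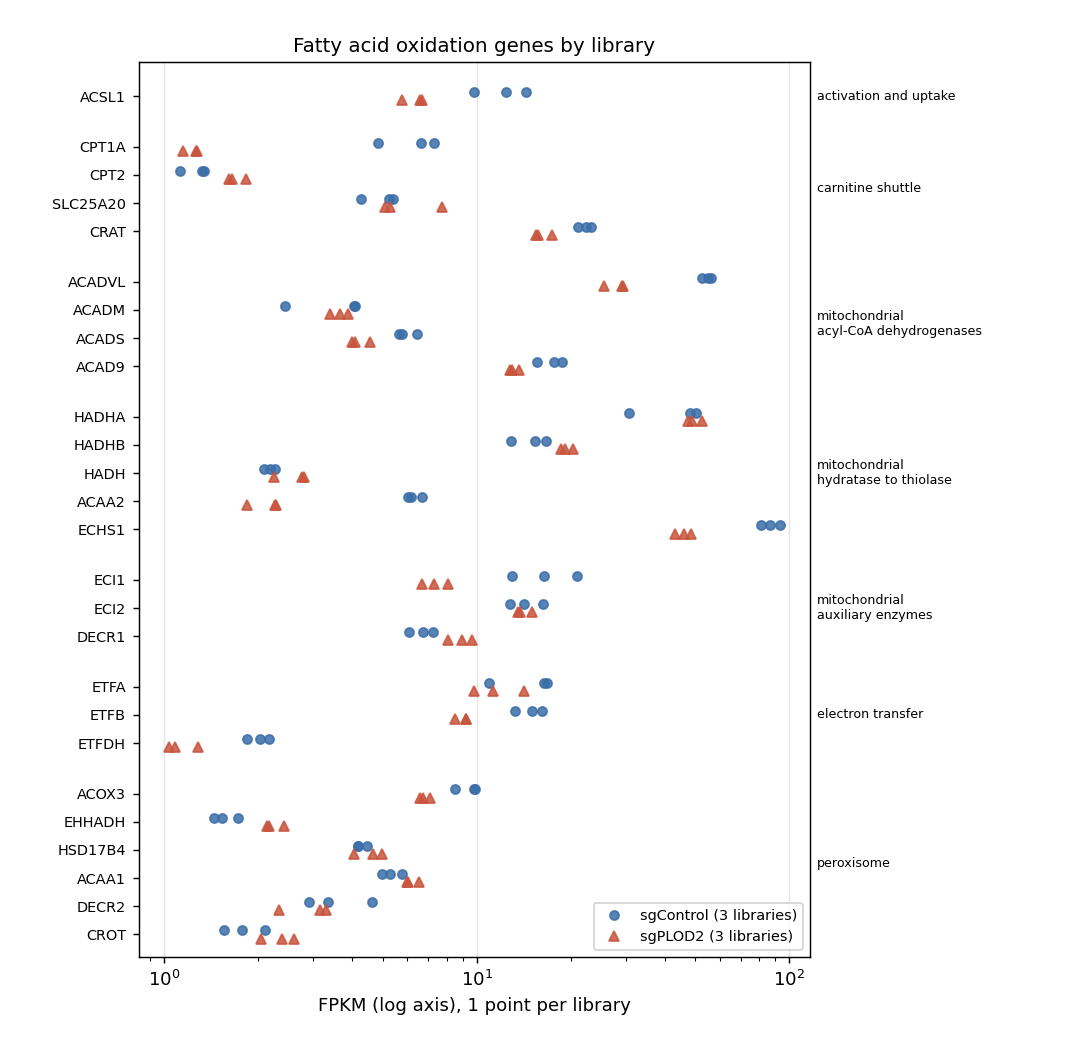
FPKM of the 26 tested fatty acid oxidation genes on a log axis, with 1 point for each library (blue circles, 3 sgControl; red triangles, 3 sgPLOD2), grouped by step. CPT1A sits at 4.84 to 7.28 FPKM in sgControl and 1.15 to 1.27 FPKM in sgPLOD2, and HADHA overlaps between the groups.

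Summed over the 33 genes, expression was 349, 386 and 401 FPKM in the sgControl libraries and 285, 273 and 283 in sgPLOD2. ECHS1, ACADVL and HADHA were the most highly expressed by mean FPKM and carried much of that sum. The groups did not overlap in it. Nor did they in the FPKM total of all genes, which was 243422 to 268612 in sgControl and 229485 to 238801 in sgPLOD2. The sum was not rescaled to these totals.

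Upstream stretches are shown for CPT1A, which fell most, for ACADVL and ETFB, which also fell, for ACAD9 and ACOX3, whose windows hold a CRE, and for the shared start region of HADHA and HADHB. All come from RefSeq promoter windows on GRCh38.p14, which run from 250 bases before to 50 bases after a start, and only bases before the start that lie in no GENCODE 29 exon are printed, 5′ to 3′. Capitals mark exact matches, on either strand, to ACGTG or GCGTG (cores of the HIF element) or to TGACGTCA (the CRE, bound by CREB and ATF factors). The last capital in ACAD9 belongs to a match that runs on into an exon. The CPT1A, ACADVL and ETFB stretches show no capitals, but their genes do have matches outside the printed bases. Windows of ACADVL and of ETFB hold both ACGTG and GCGTG, and a CPT1A window holds GCGTG after the start.
CPT1A, chr11:68844411-68844527, minus strand: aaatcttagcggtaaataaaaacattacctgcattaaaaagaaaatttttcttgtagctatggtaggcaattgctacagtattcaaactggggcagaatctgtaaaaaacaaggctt
ACADVL, chr17:7216875-7217117, plus strand: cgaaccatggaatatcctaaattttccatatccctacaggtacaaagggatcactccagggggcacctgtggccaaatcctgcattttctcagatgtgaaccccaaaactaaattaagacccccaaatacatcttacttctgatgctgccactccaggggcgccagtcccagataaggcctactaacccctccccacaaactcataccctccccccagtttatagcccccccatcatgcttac
ETFB, chr19:51366419-51366638, minus strand: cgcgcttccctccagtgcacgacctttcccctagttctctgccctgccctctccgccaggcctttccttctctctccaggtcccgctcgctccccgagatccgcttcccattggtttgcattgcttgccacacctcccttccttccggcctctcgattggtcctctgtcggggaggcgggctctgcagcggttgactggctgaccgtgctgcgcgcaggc
ACAD9, chr3:128879370-128879595, plus strand: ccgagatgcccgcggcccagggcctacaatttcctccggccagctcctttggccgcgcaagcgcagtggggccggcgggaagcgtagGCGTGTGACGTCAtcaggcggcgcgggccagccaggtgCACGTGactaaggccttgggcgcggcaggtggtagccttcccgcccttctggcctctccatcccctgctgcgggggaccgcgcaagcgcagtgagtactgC
ACOX3, chr4:8440724-8440804, minus strand: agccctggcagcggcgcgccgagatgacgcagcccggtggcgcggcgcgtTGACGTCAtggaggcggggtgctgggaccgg
HADHA and HADHB, chr2:26244727-26244747, plus strand: ccggccccttagccctgcccc

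The CPT1A stretch, at positions -250 to -134 from its start, is AT-rich, with 32.5% G and C. That of ACOX3, at -81 to -1, has 76.5%. They cover unlike positions, so these shares do not compare the promoters. HADHA and HADHB, which encode the subunits of the trifunctional protein, face away from each other with 306 bases between their RefSeq starts, and their printed bases are those between the nearest exons of both genes. RefSeq windows were found for 26 of the 33 genes, 39 windows in all. ACAA1, ETFDH, EHHADH, CRAT, DECR2, DECR1 and CPT1B had no entry in the table.

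None of the 39 windows held the PPAR element, searched as AGGTCA repeated after 1 base, or TNAAGGTCA, the ERR element. These occurred in 0.0228% and 0.951% of all 35116 RefSeq windows. The single AGGTCA, a part of both elements, was also in none of the 39, beside 13.8% of all windows. ACGTG was in 6 windows (15.4%, against 21.4% of all) and GCGTG in 20 (51.3%, against 36.5%). TGACGTCA was in 3 windows, 1 of ACAD9 and 2 of ACOX3, which is 7.69% against 1.85% of all windows. Windows of 1 gene can overlap, so 1 site may be counted more than once. By gene, ACGTG was in 6, GCGTG in 18 and TGACGTCA in 2 of the 26 genes. The ACAD9 match lies next to a GCGTG. The search covered both strands, a match describes letters only, and absence says only that those letters are not in these windows.

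Activation was represented by ACSL1, the long-chain acyl-CoA synthetase tied to mitochondrial oxidation in muscle and fat. ACSL1 (ENSG00000151726; GRCh38, chromosome 4, 184755595 to 184826818, minus strand) measured 9.83, 14.3 and 12.4 FPKM in sgControl and 5.77, 6.69 and 6.58 in sgPLOD2. Every sgPLOD2 library was below every sgControl library, and 52.2% of the control mean remained. The fall was -0.83 ± 0.14 (SE; limma, adjusted p = 0.00247). SLC27A2, a very long-chain acyl-CoA synthetase of the peroxisome and endoplasmic reticulum that is abundant in kidney tubule, was listed at 0 in all 6 libraries.

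The carnitine shuttle contained the largest difference of the whole set. CPT1A, the liver-type carnitine palmitoyltransferase 1 whose step controls entry of long chains, lies on chromosome 11 from 68754620 to 68844410, minus strand (ENSG00000110090). It measured 4.84, 7.28 and 6.61 FPKM in sgControl and 1.15, 1.26 and 1.27 in sgPLOD2. The lowest control library was thus well above the highest sgPLOD2 library, and the mean went from 6.24 ± 1.26 FPKM (SD, n = 3) to 1.23 ± 0.07 FPKM (SD, n = 3). CPT1A fell by 1.69 ± 0.14 on the log2 scale (limma, adjusted p = 0.000127), which leaves 19.7% of the control mean in FPKM.

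The other forms of CPT1 were near or below 1 FPKM. CPT1B, the muscle form, measured 0.919, 0.705 and 1.04 FPKM in sgControl and 0.648, 0.486 and 0.339 in sgPLOD2. It was below the filter, its groups did not overlap, and it overlaps on the same strand the read-through gene CHKB-CPT1B, so its level is uncertain. CPT1C, the brain form, was listed at 0 in 5 libraries and at 0.00464 FPKM in sgPLOD2 replicate 3. CPT1A made up 84.0%, 91.2% and 86.4% of the summed CPT1 FPKM in sgControl and 63.9%, 72.2% and 78.7% in sgPLOD2.

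The inner side of the shuttle was not called lower. CPT2, which remakes acyl-CoA on the matrix side, measured 1.32, 1.34 and 1.12 FPKM in sgControl and 1.65, 1.61 and 1.82 in sgPLOD2. It rose by 0.26 ± 0.08 (limma, adjusted p = 0.0378), a call that was lost under 10 of the 18 alternatives that could test it, with adjusted p up to 0.746. SLC25A20, the carnitine-acylcarnitine translocase, measured 5.41, 5.23 and 4.25 FPKM in sgControl and 5.29, 5.10 and 7.74 in sgPLOD2. Only sgPLOD2 replicate 3 stood above the control libraries, and the difference of 0.23 ± 0.16 did not pass the test (limma, adjusted p = 0.271).

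CRAT, the carnitine acetyltransferase that exports short acyl groups, measured 23.2, 22.3 and 21.1 FPKM in sgControl and 15.5, 15.8 and 17.4 in sgPLOD2. It fell by 0.43 ± 0.08 (limma, adjusted p = 0.00507) with no overlap between groups. CRAT is GC-rich at 62.3%. Its difference after removal of the trend on GC content and length was -0.08 (adjusted p = 0.475). Its gene overlaps PTPA on the other strand by 240 bases. PTPA is expressed at 60.2 ± 3.62 FPKM in sgControl and 41.9 ± 2.1 FPKM in sgPLOD2 (SD, n = 3), and fell as well.

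Of the 4 tested acyl-CoA dehydrogenases, which carry out the first oxidation of each round, 3 fell (75%) and none rose. Among all tested genes 23.5% fell and 29.5% rose. ACADVL, the very long-chain enzyme, lies on chromosome 17 from 7217125 to 7225266, plus strand (ENSG00000072778). It measured 52.6, 56.0 and 55.1 FPKM in sgControl and 29.1, 29.3 and 25.5 in sgPLOD2. Its libraries were tightly grouped, 51.3% of the control mean remained, and the fall was -0.94 ± 0.09 (limma, adjusted p = 0.000199). 

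ACADS, the short-chain enzyme, measured 5.77, 5.64 and 6.43 FPKM in sgControl and 4.09, 4.0 and 4.56 in sgPLOD2, a fall of -0.41 ± 0.09 (limma, adjusted p = 0.0084). At 64.6% it has the highest GC content of the tested genes here. Removal of the GC and length trend turned its difference to 0.13 (adjusted p = 0.274). ACAD9, needed for assembly of respiratory complex I as well as active on long chains, measured 15.6, 17.6 and 18.7 FPKM in sgControl and 12.8, 13.7 and 12.9 in sgPLOD2. It fell by 0.37 ± 0.09 (limma, adjusted p = 0.0132), and this call was lost under TPM (adjusted p = 0.106), after removal of the GC and length trend (0.0645) and without sgControl replicate 3 (0.0509).

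The medium-chain enzyme ACADM, the one mutated in the most common inherited defect of the pathway, measured 2.44, 4.05 and 4.07 FPKM in sgControl and 3.39, 3.88 and 3.65 in sgPLOD2. The difference of 0.06 ± 0.16 did not pass the test (limma, adjusted p = 0.778), and sgControl replicate 1 alone was low. ACADM overlaps RABGGTB on the same strand by 1379 bases, a gene at 4.33 FPKM in sgControl and 3.99 FPKM in sgPLOD2. ACADSB, for short branched chains, was below the filter at 0.507, 0.762 and 0.573 FPKM in sgControl and 1.06, 1.29 and 0.953 in sgPLOD2. Its libraries did not overlap, and with no filter it was called higher (0.38, limma, adjusted p = 0.0471). ACADL was listed at 0 in 5 libraries and at 0.0135 FPKM in sgControl replicate 3. ACADVL made up 66.7% of the summed FPKM of the 6 dehydrogenases in sgControl and 55.9% in sgPLOD2, as a mean over libraries.

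**Figure D2:**
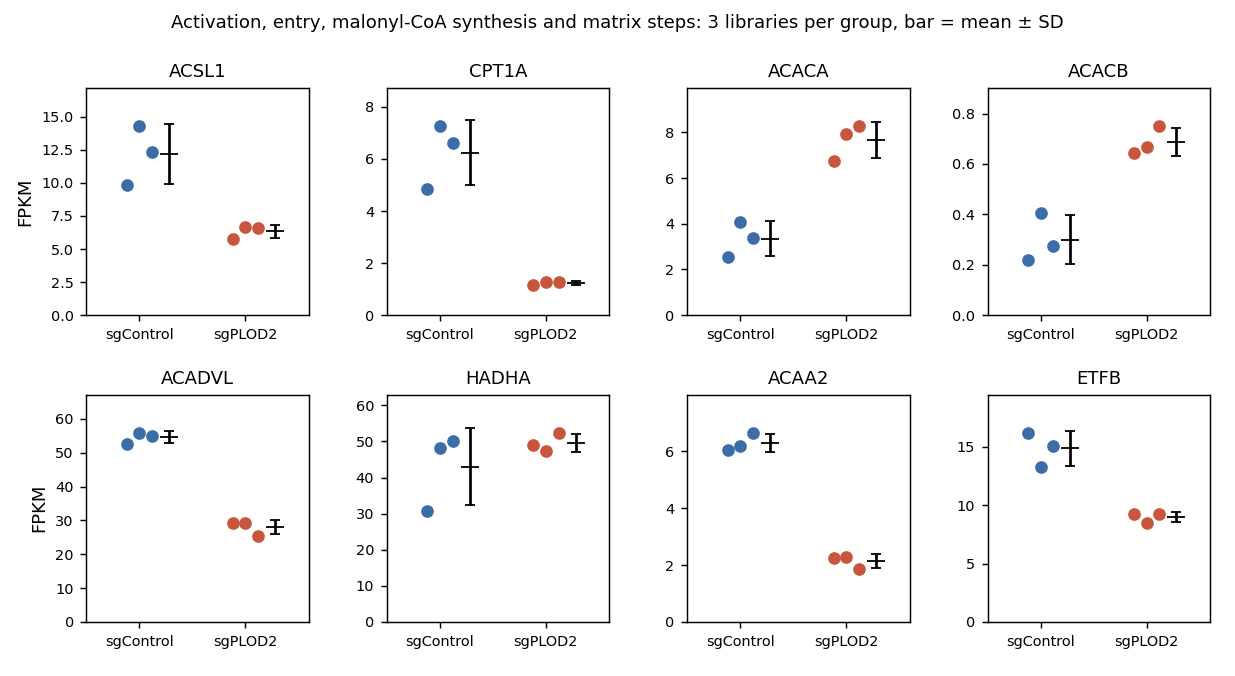
FPKM by library for activation (ACSL1), entry (CPT1A), malonyl-CoA synthesis (ACACA, ACACB) and matrix steps (ACADVL, HADHA, ACAA2, ETFB), with bars for mean ± SD of 3 libraries and axes that start at 0. ACACA and ACACB are higher in every sgPLOD2 library, HADHA overlaps between the groups, and the other 5 genes are lower in every sgPLOD2 library.

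The enzymes from the hydratase to the thiolase moved in both directions. ECHS1, the short-chain hydratase and the most highly expressed gene of the set, measured 81.0, 86.8 and 93.1 FPKM in sgControl and 48.6, 43.1 and 46.0 in sgPLOD2. It fell by 0.91 ± 0.09 (limma, adjusted p = 0.000273), to 52.8% of the control mean. ACAA2, the thiolase that ends each round for medium chains, measured 6.04, 6.18 and 6.66 FPKM in sgControl and 2.27, 2.28 and 1.84 in sgPLOD2. It lies on chromosome 18 from 49782164 to 49813953, minus strand (ENSG00000167315), and fell by 1.22 ± 0.10 (limma, adjusted p = 0.000104), to 33.8% of the control mean.

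The trifunctional protein, which joins hydratase, dehydrogenase and thiolase activity for long chains, was not called lower. HADHA, its alpha subunit, measured 30.7, 48.1 and 50.1 FPKM in sgControl and 48.9, 47.4 and 52.5 in sgPLOD2. Its difference of 0.23 ± 0.18 did not pass the test (limma, adjusted p = 0.314) and was 0.01 without sgControl replicate 1, the library with the high mitochondrial share. HADHB, the beta subunit, measured 12.9, 15.3 and 16.6 FPKM in sgControl and 20.3, 18.6 and 19.1 in sgPLOD2. HADHB rose by 0.36 ± 0.11 (limma, adjusted p = 0.0273), but 8 of 19 alternatives lost the call, among them leaving out any 1 of the sgPLOD2 libraries. In GENCODE 29 the genes overlap by 1557 bases on opposite strands, and the strand setting of the counting is not given in the sources used here, so reads in that stretch could be assigned to either.

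HADH, the 3-hydroxyacyl-CoA dehydrogenase for shorter chains, measured 2.08, 2.17 and 2.26 FPKM in sgControl and 2.25, 2.80 and 2.76 in sgPLOD2. The difference of 0.18 ± 0.09 did not pass the test (limma, adjusted p = 0.148). Within each library, the ratio of HADHA to ACAA2 in FPKM was 5.08, 7.79 and 7.53 in sgControl and 21.6, 20.8 and 28.4 in sgPLOD2. The ratio of HADHA to ECHS1 was 0.379, 0.555 and 0.538 in sgControl and 1.01, 1.10 and 1.14 in sgPLOD2. Such ratios do not depend on the scaling of a library, and both separated the groups. Each divides HADHA, which was not called, by a gene called lower, so the separation adds nothing to those calls.

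Among the auxiliary enzymes for unsaturated chains, the 3 genes gave 3 different outcomes. ECI1, a mitochondrial enoyl-CoA isomerase, measured 21, 13 and 16.4 FPKM in sgControl and 7.27, 6.68 and 8.09 in sgPLOD2. It fell by 1.07 ± 0.17 (limma, adjusted p = 0.00186), to 43.7% of the control mean, with a wide spread in sgControl. ECI2, a related isomerase also found in peroxisomes, measured 12.7, 14.2 and 16.3 FPKM in sgControl and 15, 13.5 and 13.8 in sgPLOD2. Its difference of -0.02 ± 0.11 did not pass the test (limma, adjusted p = 0.873). It lies on chromosome 6, whose 511 tested genes had a median difference of 0.35, and with chromosome medians removed it was called lower (-0.37, adjusted p = 0.0261).

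DECR1, the mitochondrial dienoyl-CoA reductase, measured 7.26, 6.05 and 6.75 FPKM in sgControl and 8.94, 8.09 and 9.64 in sgPLOD2. DECR1 rose by 0.36 ± 0.10 (limma, adjusted p = 0.0208) with no overlap. Leaving out sgControl replicate 2 or 3 or sgPLOD2 replicate 1 or 3 ended that call, with adjusted p between 0.0535 and 0.0716. Its gene overlaps NBN on the other strand by 1824 bases. NBN measured 3.71 ± 1.67 FPKM in sgControl and 6.16 ± 1.24 FPKM in sgPLOD2 (SD, n = 3). The NBN difference of 0.65 did not pass the test (limma, adjusted p = 0.0621). Whether NBN reads entered the DECR1 value was not tested.

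Of the 3 electron transfer genes 2 fell (66.7%) and none rose, beside 23.5% and 29.5% of all tested genes. ETFB, the beta subunit of electron transfer flavoprotein, measured 16.2, 13.3 and 15.1 FPKM in sgControl and 9.22, 8.51 and 9.22 in sgPLOD2, a fall of -0.66 ± 0.10 (limma, adjusted p = 0.00137). ETFDH, the membrane oxidoreductase that hands the electrons to ubiquinone, measured 2.17, 1.84 and 2.03 FPKM in sgControl and 1.04, 1.28 and 1.08 in sgPLOD2. It fell by 0.50 ± 0.09 (limma, adjusted p = 0.00337), and both genes kept their groups apart in every library.

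ETFDH overlaps PPID by 490 bases and C4orf46 by 131 bases on the other strand. PPID measured 20.2 ± 0.82 FPKM in sgControl and 12.6 ± 0.76 FPKM in sgPLOD2 (SD, n = 3) and also fell, as did C4orf46, from 4.83 to 1.71 FPKM. Whether their reads entered the ETFDH value was not tested. ETFB overlaps AC008750.8 on the same strand by 16046 bases, a gene at 1.82 FPKM in sgControl and 1.28 FPKM in sgPLOD2. Its share in the ETFB value was not tested either. ETFA, the alpha subunit, measured 11, 16.8 and 16.4 FPKM in sgControl and 14.2, 11.3 and 9.76 in sgPLOD2. Its difference of -0.29 ± 0.19 did not pass the test (limma, adjusted p = 0.227), and without sgControl replicate 1 it was called lower (-0.48, adjusted p = 0.0319). The subunits form a heterodimer, and their FPKM ratio, ETFA over ETFB, was 0.676, 1.26 and 1.09 in sgControl and 1.53, 1.32 and 1.06 in sgPLOD2, so the groups overlapped.

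**Figure D3:**
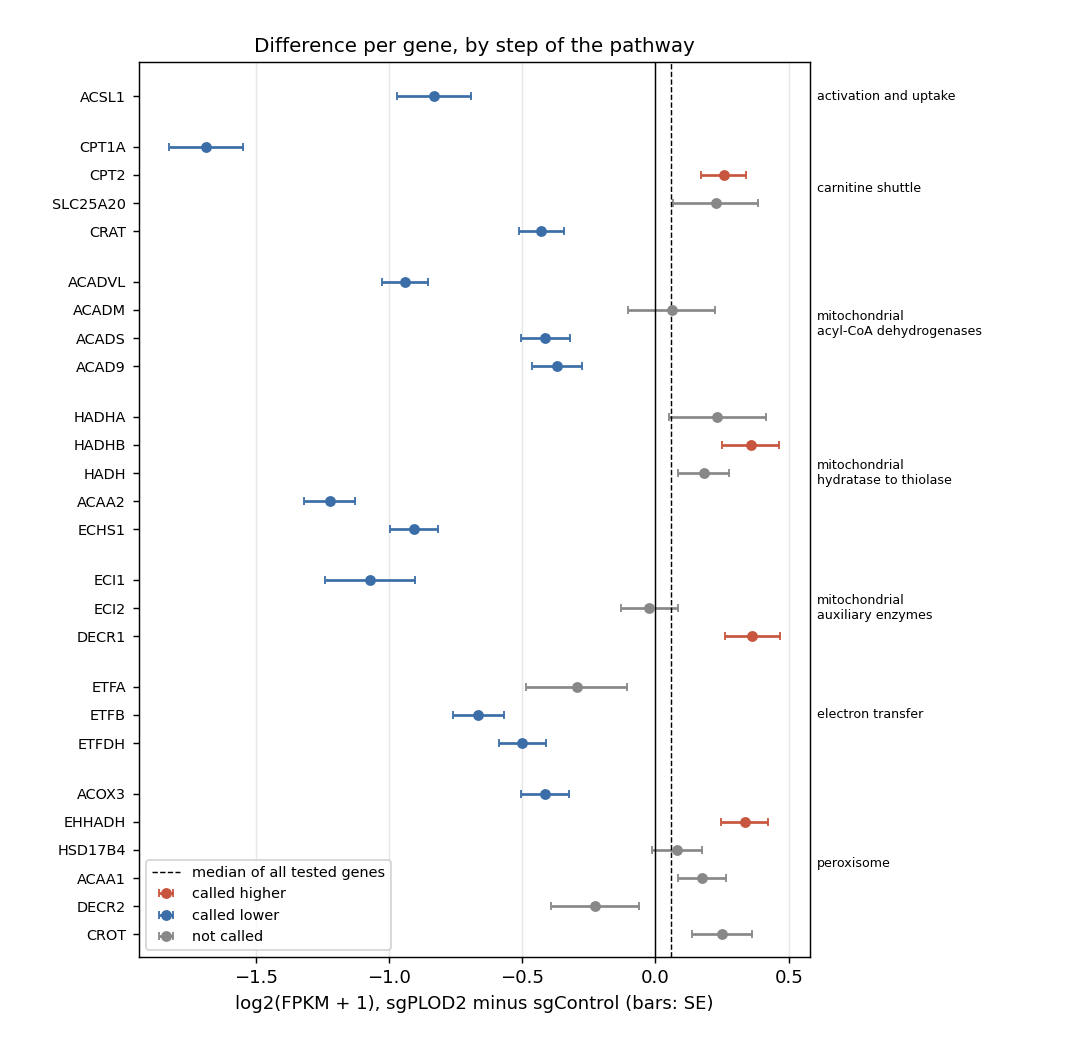
Difference on log2(FPKM + 1), sgPLOD2 minus sgControl, for each tested gene with its standard error (bars), ordered by step; blue was called lower, red higher and grey not called. The 12 called lower run from CPT1A at -1.69 to ACAD9 at -0.37, the 4 called higher lie between 0.26 and 0.36, and the dashed line is the median of all tested genes at 0.06.

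Counted over the mitochondrial matrix, from the dehydrogenases to ETFDH, 8 of 15 tested genes fell (53.3%) and 2 rose (13.3%), beside 23.5% and 29.5% of all tested genes. Of the 6 tested peroxisomal genes 1 fell and 1 rose (16.7% each), so neither share was above that of all tested genes. The difference between both compartments was not tested.

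In the peroxisome, ACOX3, an acyl-CoA oxidase for branched chains, was the gene that fell. It measured 8.52, 9.90 and 9.79 FPKM in sgControl and 6.71, 6.59 and 7.06 in sgPLOD2, a fall of -0.42 ± 0.09 (limma, adjusted p = 0.00739). Rescaling to TPM ended the call (adjusted p = 0.0547). EHHADH, the peroxisomal bifunctional enzyme for straight chains and dicarboxylic acids, measured 1.44, 1.73 and 1.53 FPKM in sgControl and 2.13, 2.42 and 2.16 in sgPLOD2. EHHADH rose by 0.34 ± 0.09 (limma, adjusted p = 0.016), while the 570 tested genes of its chromosome, 3, had a median difference of 0.33. With chromosome medians removed its difference was 0.0026 (adjusted p = 0.985).

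The other 4 peroxisomal genes did not pass the test. HSD17B4, the bifunctional enzyme for branched and very long chains, lay between 4.15 and 4.44 FPKM in sgControl and between 4.06 and 4.97 in sgPLOD2. ACAA1, the peroxisomal thiolase, lay between 4.99 and 5.78 FPKM in sgControl and between 5.96 and 6.53 in sgPLOD2. Its groups did not overlap, its difference was 0.17 ± 0.09 (limma, adjusted p = 0.141), and it was called higher under TPM (adjusted p = 0.0441). DECR2, the peroxisomal dienoyl-CoA reductase, and CROT, which makes carnitine esters of the medium chains that leave the peroxisome, overlapped between the groups. Their differences were -0.23 ± 0.16 (limma, adjusted p = 0.278) and 0.25 ± 0.11 (0.0965). The DECR2 gene overlaps NME4 on the same strand by 8542 bases, and NME4 was at 0.257 FPKM in sgControl and 1.41 FPKM in sgPLOD2.

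The 2 regulators on the list were too weakly expressed to be tested. PPARA, the fatty acid-activated receptor that drives many of these genes in liver, measured 0.429, 0.426 and 0.343 FPKM in sgControl and 0.303, 1.55 and 1.40 in sgPLOD2. The first sgPLOD2 library was below all controls while the other 2 were above them, an exact 2-sided permutation test gave p = 0.4, and with no filter limma gave 0.52 ± 0.27 (adjusted p = 0.244). PPARGC1A, the coactivator that promotes mitochondrial biogenesis, was listed at 0.00263, 0.00533 and 0 FPKM in sgControl and at 0 in all of sgPLOD2.

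Of the 12 genes that fell, 8 kept that call under each of the 19 alternatives that could test them: ACSL1, CPT1A, ACADVL, ACAA2, ECHS1, ECI1, ETFB and ETFDH. Raising the minimum to 5 FPKM removed CPT1A, ACAA2 and ETFDH from the test. None of the 4 that rose kept its call throughout. Of the 10 not called, 7 were called under no alternative, and the exceptions were ECI2, ETFA and ACAA1.

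**Figure D4:**
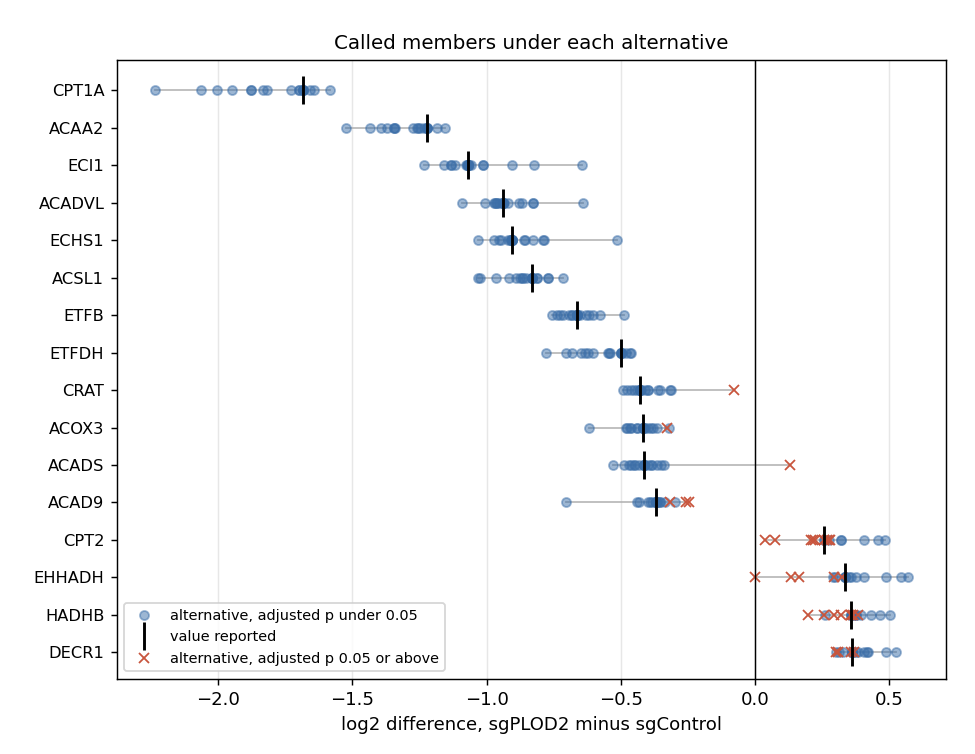
Difference on the log2 scale for each called gene under every alternative setting (blue circles, adjusted p under 0.05; red crosses, 0.05 or above), with a black bar for the value reported. CPT1A ranges from -2.24 to -1.58, ACADS reaches 0.13 after removal of the GC and length trend, and each of the 4 genes called higher has at least 1 cross.

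GC content moved with the differences across all genes. Tested genes were ranked by transcript GC content and cut into 4 bins of equal size. Those in the lowest bin had a median difference of 0.27, and 10.9% of them fell. In the highest bin the median was -0.26 and 44.6% fell. The 12 fatty acid oxidation genes that fell had a median GC content of 53.5%, the 4 that rose 42.8% and the 10 others 44.8%. ACADVL, ECHS1, ECI1, CRAT and ACADS are in the highest bin, whereas ACSL1, ACAA2, ETFB and ETFDH lie in the second and CPT1A, ACAD9 and ACOX3 in the third. After removal of the GC and length trend, 9 genes were called lower and 1 higher, with CPT1A at -1.88 and ACAA2 at -1.34.

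**Figure D5:**
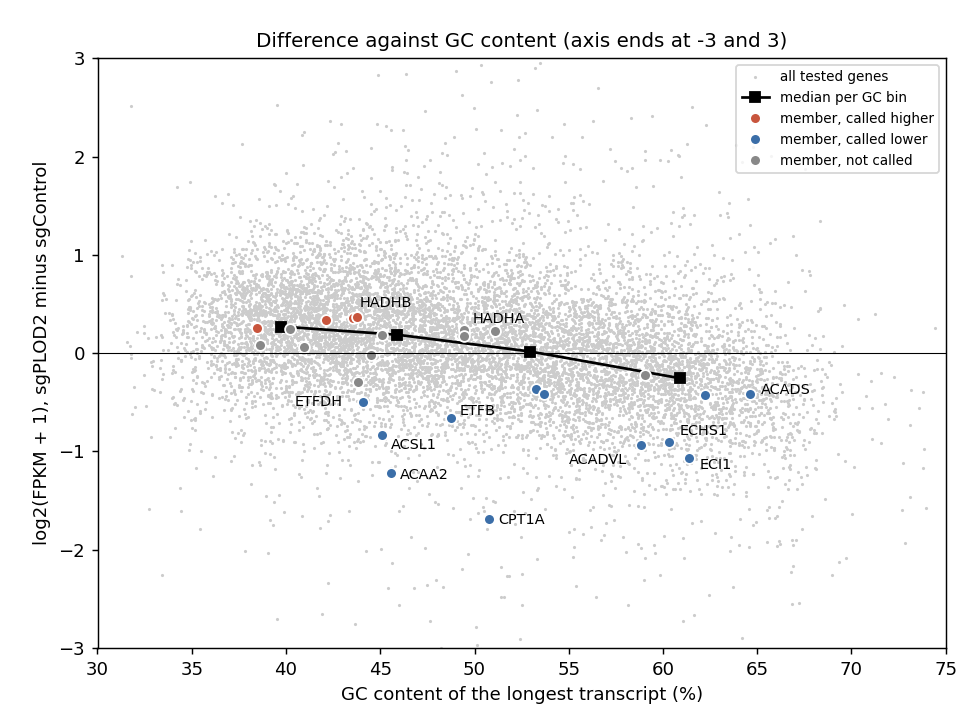
Difference on log2(FPKM + 1) against GC content of the longest transcript (%), for all tested genes (grey dots), medians of 4 equal GC bins (black squares, 0.27 to -0.26) and the 26 fatty acid oxidation genes (coloured). CPT1A at -1.69 and ACAA2 at -1.22 lie in bins with medians of 0.02 and 0.19, and the 4 genes called higher lie at 38.5% to 43.8% GC.

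Differences also ran along chromosomes, with medians of tested genes from -0.25 on chromosome 16 to 0.54 on chromosome 14 among those with over 100 tested genes. ECI1 lies on chromosome 16, while CPT1A, ACAA2, ACADVL and ECHS1 lie on chromosomes with medians of 0.19, 0.21, 0.15 and 0.13. An effect of PLOD2 loss and a difference between the cell populations of both groups cannot be told apart in this design.

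The authors' deposited table holds its own comparison of the same libraries, on another scale and with no tool named. For 30 of the 33 genes the authors' deposited table had an adjusted p, and of these 13 were lower and 2 higher, where 17.0% and 18.5% of all 22870 genes with an adjusted p were. In 13 genes the call and direction were the same as with limma. CPT1B and ACADSB were called only in the authors' deposited table, and CPT2, HADHB and DECR1 only with limma. The authors' deposited table gives CPT1A a log2 fold change of -2.44, ACAA2 -1.66, ECI1 -1.28, ACADVL -1.06 and ECHS1 -1.02. Both comparisons use the same libraries, so the second is no independent evidence.

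Genes around the pathway were called in both directions. Of 68 tested genes in lists of uptake, malonyl-CoA control, other peroxisomal enzymes, thioesterases, other acyl-CoA, odd-chain and ketone enzymes, regulators, PPAR targets and flavin supply, 22 rose (32.4%) and 13 fell (19.1%). These shares are near the 29.5% and 23.5% of all tested genes, and so are no result about these lists. Their median difference was 0.14, beside 0.06 for all tested genes, and it was -0.02 with chromosome medians removed. Counts for single lists among these, given below, rest on 3 to 15 tested genes each and were not tested as sets.

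The mRNA of acetyl-CoA carboxylase genes differed in the opposite direction to that of CPT1A. ACACA, the cytosolic acetyl-CoA carboxylase, measured 2.55, 4.08 and 3.38 FPKM in sgControl and 6.76, 7.92 and 8.29 in sgPLOD2. ACACA rose by 1.01 ± 0.15 (limma, adjusted p = 0.00143). ACACB, the form at the mitochondrial surface, was below the filter at 0.217, 0.406 and 0.273 FPKM in sgControl and 0.644, 0.665 and 0.751 in sgPLOD2. The FPKM ratio of ACACA to CPT1A was 0.527, 0.561 and 0.511 in sgControl and 5.89, 6.26 and 6.52 in sgPLOD2. It divides a gene called higher by one called lower, so its separation adds nothing to those calls. Malonyl-CoA itself was not measured.

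Of the 6 tested malonyl-CoA control genes 2 rose (33.3%) and 1 fell (16.7%), beside 29.5% and 23.5% of all tested genes. PRKAG2, a regulatory subunit of AMP-activated kinase, which inactivates the carboxylases, fell from 10.2 ± 1.28 to 3.85 ± 0.65 FPKM (SD, n = 3). PRKAA1, a catalytic subunit, rose from 5.24 ± 1.16 to 7.49 ± 0.70 FPKM (SD, n = 3). All of these carboxylase and kinase values are mRNA levels only.

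The acyl-CoA dehydrogenases, ETF and ETFDH carry flavin cofactors. Of 4 tested genes of flavin supply 3 fell (75%) and none rose, beside 23.5% and 29.5% of all tested genes. Those that fell were the riboflavin transporter SLC52A2 (43.6 to 25.5 FPKM), the FAD synthase FLAD1 (10.2 to 5.50 FPKM) and the riboflavin kinase RFK (9.63 to 6.81 FPKM). SLC25A32 had a difference of 0.33 ± 0.14 and did not pass the test (limma, adjusted p = 0.0809). SLC52A2, at 65.8% GC, lies in the highest GC bin, where 44.6% of all tested genes fell. A link between flavin supply and the flavin enzymes was not tested. Of the 4 tested PPAR targets 2 fell (50%) and 1 rose (25%), beside 23.5% and 29.5% of all tested genes. The lipid droplet protein PLIN2 fell from 46.6 to 26.6 FPKM and ANGPTL4, a lipoprotein lipase inhibitor, from 7.28 to 3.56 FPKM. TXNIP rose from 12.5 to 17.3 FPKM.

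Among 15 tested other regulators 7 rose (46.7%) and none fell, beside 29.5% and 23.5% of all tested genes. The 7 include a gene with a sgControl mean of 0.892 FPKM, which reached the filter through sgPLOD2 alone. PPARD, the broadly expressed PPAR, measured 10.1, 9.12 and 8.50 FPKM in sgControl and 21.1, 21.4 and 22.3 in sgPLOD2, a rise of 1.15 ± 0.09 (limma, adjusted p = 9.32e-05). The corepressor NCOR1 rose from 1.98 to 6.10 FPKM, and the deacetylase SIRT1 from 2.15 to 3.34 FPKM. Of the 13 tested other peroxisomal lipid genes 5 rose (38.5%) and 1 fell (7.69%), beside the same shares of all tested genes. Catalase (CAT) rose from 4.48 to 9.90 FPKM and HACL1, of alpha-oxidation, from 4.37 to 6.92 FPKM.

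Thioesterases, which release fatty acids from coenzyme A, split evenly, with 2 of 6 tested genes higher and 2 lower (33.3% each). Among all tested genes 29.5% rose and 23.5% fell. ACOT7 fell from 68.3 to 38.6 FPKM and ACOT8 from 4.51 to 3.13 FPKM, while ACOT1 rose from 2.27 to 4.79 FPKM, a value that its near-identical neighbour ACOT2 makes uncertain. Of 9 tested other acyl-CoA dehydrogenases and short-chain enzymes 1 rose (11.1%) and 3 fell (33.3%). ECHDC3 measured 2.44, 2.52 and 3.89 FPKM in sgControl and was listed at 0, 0.0131 and 0 FPKM in sgPLOD2. It reached the filter through sgControl alone, so its place in the count depends on the group where it is high. ACSF3 fell from 1.78 to 1.11 FPKM, and ACAD8, the isobutyryl-CoA dehydrogenase, rose from 1.01 to 1.92 FPKM.

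Of the 3 tested odd-chain genes 2 rose (66.7%) and 1 fell (33.3%), beside 29.5% and 23.5% of all tested genes. MMUT rose from 1.69 to 3.11 FPKM and PCCB from 8.86 to 11.2 FPKM. MCEE, whose epimerase acts between them, fell from 2.68 to 1.21 FPKM. Of 3 tested ketone body genes 1 rose (33.3%) and none fell. OXCT1, which starts ketone use, rose from 10.8 to 15.2 FPKM, whereas AACS (2.93 and 2.29 FPKM) did not pass the test. Of 5 tested other uptake and activation genes 1 rose (20%) and none fell. ACSL5 rose from 0.867 to 1.22 FPKM, and so reached the filter through sgPLOD2 alone. ACSL4 (8.14 and 10.6 FPKM) and the transporter SLC27A4 (20.4 and 18.7 FPKM) did not pass the test.

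The tricarboxylic acid cycle, which takes up the acetyl-CoA made by oxidation, had 4 of 17 tested genes higher and 3 lower, with a median difference of 0.01 that changed sign under median-of-ratios scaling, without sgControl replicate 1 and without sgPLOD2 replicate 1. These shares, 23.5% and 17.6%, were not above those of all tested genes. IDH3G fell from 34.6 to 15.5 FPKM and FH, fumarase, from 51.6 to 33.3 FPKM, while SDHD rose from 11.7 to 18.7 FPKM. All names in these surrounding lists are from the 3 genes with the smallest adjusted p in each, apart from ACACB and SLC25A32. Every verb of change refers to a limma adjusted p under 0.05 over all 10469 genes.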

How the data were processed

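The deposited table, mapped to 6 libraries by its column labels, gave 1 FPKM value per gene and library, scaled by the authors for gene length and mapped fragments, per the file headers. It also held the authors' log2 fold change, standard error, test score, mean normalized count and p-value, per the file headers. CASAVA, HISAT2 2.1.0, StringTie 1.3.4 and GRCh38 appear in the submitters' processing notes. Which tool made the comparison, and how reads were counted and stranded, is not given in the sources used here.

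Differences were tested with limma 3.58.1 in R 4.3.3 (lmFit, eBayes with an intensity trend, 2-sided) on log2(FPKM + 1). The test took in 10469 genes whose mean over the 6 libraries reached 1 FPKM, with Benjamini-Hochberg adjustment over all of them and a threshold of 0.05. The pseudocount of 1 understates changes of weakly expressed genes. FPKM hold no read counts, so no counting interval is given, and a value of 0 can be a failed estimate. Exact permutation tests used scipy 1.17.1, and mgcv 1.9.3 removed the GC and length trend (known for 99.9% of tested genes). The script was checked on simulated data.

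Every gene of the pathway list is named. Full statistics were planned for the 12 with the smallest adjusted p and for CPT1A, CPT2, ACADM, ACADVL, HADHA, PPARA and PPARGC1A, and each surrounding list contributes the 3 genes with the smallest adjusted p. Some genes that this rule or the marker lists picked are not reported here. Some others, such as ACACB and SLC25A32, were added after their values were seen. The pathway genes and all lists were chosen with earlier results of these data known. Gene positions are those of the deposited table, and GENCODE 29 held 58275 of its 58395 identifiers. Other settings tried were pseudocounts of 0.1 or 0.5, filters at 5 FPKM or none, TPM (also leaving out mitochondrial and ribosomal protein genes), scaling by median of ratios or by quantiles, variance models without the trend or robust, a replicate block, removal of the GC and length trend or of chromosome medians, and leaving out each library.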

Additional observations from a re-analysis of the deposited data

How the results depend on the processing

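The number of fatty acid oxidation genes called lower was 12 and ranged from 9 (minimum of 5 FPKM, or GC and length trend taken out) to 13. The number called higher was 4, and it was 2 at a minimum of 5 FPKM, under quantile normalization, under median-of-ratios scaling and after removal of chromosome medians, and 1 after removal of the GC and length trend. Their median difference was -0.26, and it was -0.0146 with no filter, which adds weakly expressed genes, and -0.39 with a minimum of 5 FPKM. Leaving out 1 library at a time gave 11 to 13 lower, 1 to 4 higher and a median from -0.37 (without sgControl replicate 1) to -0.14 (without sgControl replicate 3). The higher count was 2 without sgControl replicate 2 and 1 without sgControl replicate 3 or any 1 sgPLOD2 library. ACADS changed sign, to 0.13, once the GC and length trend was removed. PLOD2 kept its direction and call under all 19 alternatives.

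Replicate numbers are shared by both groups. Deviations of samples with the same number had correlations of 0.01, 0.14 and -0.05 across genes. With 3 libraries per group, such values cannot decide whether same-numbered samples shared a culture or batch. With the replicate number as a block, 12 genes were lower and 2 higher, and over all tested genes 2335 were lower and 2984 higher. sgControl replicate 2 deviated most with its own number, whereas sgControl replicate 1 and 3 did not. The number of libraries and weak expression limit what could be called: 7 of the 33 genes were below the filter.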
